A study of Mus musculus with 4 samples.

Results

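Dense clusters of distal accessible regions were examined in mouse embryonic fibroblasts at the first day of induced reprogramming towards heart cells. Peaks from 4 ATAC-seq libraries, on chromosomes 1 to 19 and X, gave 90202 regions once those overlapping by 1 bp or more had been merged. Of these, 55907 held a peak in all 4 libraries, and 41266 of the 55907 also lay over 2 kb from either end of any protein-coding gene. These shared distal regions were joined where at most 12500 bp lay between them, and the 3171 regions in joined groups of at least 6 regions are the members. They made up 7.68% of the shared distal regions and 3.52% of all merged regions, and they fell into 431 clusters. The members were chosen by the peak calls of the same 4 libraries, so their number, their spacing and their presence in every library are descriptions.

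ATAC-seq uses the Tn5 transposase, which cuts and tags open DNA. All 4 libraries came from the line iMGT-Myh6-eGFP-MEF, mouse embryonic fibroblasts with inducible Mef2c, Gata4 and Tbx5 (MGT), transcription factors that can drive fibroblasts towards a cardiomyocyte state, and with an eGFP reporter named for the cardiac myosin gene Myh6. Cells were transfected with a control siRNA (siControl, 2 libraries) or with an siRNA against Chst7 (siChst7, 2 libraries), which encodes a sulfotransferase that acts on chondroitin sulfate. Both groups received doxycycline (1 μg/mL) to switch on MGT and were harvested at day 1, so both groups carry the induction and no uninduced cells were analysed here. The labels call the 2 libraries of a group biological replicates without saying whether they came from separate cultures, and whether the line is a single clone is not given in the sources used here.

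The lists held 73902 and 75696 peaks in siControl and 74402 and 66165 in siChst7. Read totals are not in the lists, but the fold enrichment and p of each peak could be solved for the reads at its summit. By the lowest background so found, siControl replicate 2 had 0.948 times the background of siControl replicate 1, the first siChst7 library had 1.06 times and the second, siChst7 replicate 2, had 0.773 times, the lowest of all, and that library is called the shallowest here. A knockdown acts on the messenger RNA, so peak lists offer no check of Chst7 itself. Of 9 marker genes of fibroblasts, all 9 had a shared region within 2 kb of an end. The same held for 4 of 6 cardiomyocyte markers (not Nkx2-5 and Ryr2), 3 of 4 of smooth muscle, 3 of 4 of neurons, 2 of 4 of immune cells, 1 of 4 each of endothelium and epithelium, 1 of 3 of adipocytes and 0 of 3 of skeletal muscle. Among all 21631 protein-coding genes 60.0% had such a region.

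Enhancers are stretches of DNA, often far from gene starts, where transcription factors bind and raise the transcription of a gene on the same chromosome. Where many lie close together and carry unusually high levels of coactivators or of acetylated histones, they have been called super-enhancers, which are known for lying near genes that define a cell's identity. The joining distance used here is the customary one for that purpose, but no histone mark or coactivator was measured. The groups are therefore called clusters of distal regions.

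Some members contain an annotated transcription start. RefSeq start windows of GRCm38.p6, the assembly of mm10, run from 250 bases before to 50 bases after a start, and 124 of the 3171 members (3.91%) overlapped such a window, against 3.57% of the 38095 other shared distal regions. The members held 152 windows of 119 genes, 87 of them starts of long non-coding RNAs and 65 starts of protein-coding genes. The 5 windows printed here show the sequence at such starts, and the clusters of Prkag2, Chst3 and Firre are described further on. Capitals mark TGANTCA, the site of AP-1 (the Fos and Jun family), and GGAATG, the site of the TEAD factors, on either strand, and each window is written on the strand of its gene. Prkag2 (chr5:24995704-24996003, minus strand) has a start in a region 110 kb from the nearest protein-coding gene end, and Lmna (chr3:88503303-88503602, minus), Septin9 (chr11:117331465-117331764, plus), Chst3 (chr10:60219211-60219510, minus) and Firre (chrX:50635272-50635571, minus) follow.
Prkag2: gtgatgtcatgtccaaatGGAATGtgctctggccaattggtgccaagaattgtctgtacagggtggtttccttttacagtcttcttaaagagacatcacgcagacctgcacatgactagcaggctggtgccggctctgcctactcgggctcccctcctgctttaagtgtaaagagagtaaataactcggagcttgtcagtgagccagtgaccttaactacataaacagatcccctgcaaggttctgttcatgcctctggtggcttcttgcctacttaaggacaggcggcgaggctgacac
Lmna: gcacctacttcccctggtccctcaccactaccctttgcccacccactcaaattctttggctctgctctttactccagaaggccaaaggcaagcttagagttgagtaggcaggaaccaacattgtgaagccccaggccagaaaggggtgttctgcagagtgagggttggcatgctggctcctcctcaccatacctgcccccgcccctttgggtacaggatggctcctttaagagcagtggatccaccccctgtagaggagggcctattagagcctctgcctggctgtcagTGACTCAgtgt
Septin9: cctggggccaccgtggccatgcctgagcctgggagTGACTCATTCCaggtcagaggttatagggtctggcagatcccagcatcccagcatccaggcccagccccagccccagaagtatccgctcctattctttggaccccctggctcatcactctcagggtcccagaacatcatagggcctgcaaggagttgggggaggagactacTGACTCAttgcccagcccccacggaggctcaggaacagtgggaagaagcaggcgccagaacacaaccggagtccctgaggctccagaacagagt
Chst3: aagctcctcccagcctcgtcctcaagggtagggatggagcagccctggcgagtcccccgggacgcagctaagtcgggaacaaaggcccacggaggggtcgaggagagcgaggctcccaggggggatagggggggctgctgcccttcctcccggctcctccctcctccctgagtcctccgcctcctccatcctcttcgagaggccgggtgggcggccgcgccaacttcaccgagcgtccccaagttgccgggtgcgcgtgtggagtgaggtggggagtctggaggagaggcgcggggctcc
Firre: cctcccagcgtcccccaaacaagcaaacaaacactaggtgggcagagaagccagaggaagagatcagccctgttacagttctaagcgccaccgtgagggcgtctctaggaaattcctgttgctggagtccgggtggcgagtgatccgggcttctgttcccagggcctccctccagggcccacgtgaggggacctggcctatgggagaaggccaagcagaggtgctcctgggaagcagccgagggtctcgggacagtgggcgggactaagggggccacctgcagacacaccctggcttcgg

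The Prkag2 window has 1 TEAD match and the Lmna window has 1 AP-1 match. Septin9, which encodes a cytoskeletal GTPase, has 2 AP-1 matches, and its TEAD match overlaps the first of them. Chst3 and Firre have neither. The Chst3 window was 70.0% G and C with 22 CpG dinucleotides, against 50.3% and 6 in the Prkag2 window.

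Over the 152 windows in members, 22 (14.5%) held TGANTCA. This compares with 12.49% of 1617 windows in other shared distal regions, 7.85% of all 32619 windows and 4.58% of 10443 windows in shared regions at gene ends. GGAATG was in 17.8% of the windows in members, 16.0% of those in other shared distal regions, 14.6% of all windows and 11.3% of those at gene ends. The cores of the 3 induced factor families were about as frequent in members as over all windows, and the GATA core was rarer in the other shared distal windows. The GATA core AGATAA was in 11.8% of windows in members, 11.2% of all, 7.48% of those in other shared distal regions and 5.02% at gene ends. The MEF2 core (CTA and TAG with 4 bases between them) was in 3.95% of windows in members and 3.71% of all. It was in 3.90% of the other shared distal windows and 2.78% of those at gene ends. The T-box core AGGTGT was in 13.8% of windows in members, 13.8% of all, 12.6% of the other shared distal windows and 9.64% at gene ends. These shares carry no test, since windows of 1 gene can overlap and base composition differs. The median share of G and C was 54.7% in the members' windows, 55.7% in the other distal ones, 53.0% over all and 62.3% at gene ends. A match is a stretch of letters and does not show that a factor was bound.

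Hairpins of 27 miRNA genes lay within the span of 24 clusters. The 4 mature sequences printed here, from RefSeq, come from clusters described further on, with the seed (bases 2 to 8), which pairs with target messages, in capitals.
miR-21a-5p: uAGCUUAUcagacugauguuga
miR-125b-5p: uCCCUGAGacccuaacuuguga
miR-34a-5p: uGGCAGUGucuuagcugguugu
miR-9-5p: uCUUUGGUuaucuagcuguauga
No seed is shared among these 4. Mir21a, whose product is abundant in fibroblasts, lies on chromosome 11 (chr11:86584067-86584158, minus strand) in the cluster of 10 regions at Vmp1. Its nearest member, 2.23 kb away, had a fold enrichment of 11.5 and 12.8 in siControl and of 10.4 and 10.7 in siChst7.

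A cluster spanned 37.4 kb at the median, with a range from 14.3 to 143 kb, and its regions covered 13.1% of that span. Neighbouring regions lay 6.03 kb apart at the median. Most clusters were small. Of the 431, 202 held exactly 6 regions, 298 held 6 or 7, and 38 held 10 or more. Just outside the threshold lay 385 groups of 5 regions, with a median span of 26.3 kb and a median fold enrichment of 7.89, and just inside it the clusters of 6, with 32.3 kb and 7.46. Together the clusters spanned 17.1 Mb. The share of a chromosome's shared distal regions that they held ran from 3.93% on chromosome 13 to 10.8% on chromosome 8, with 10.5% on chromosome 5 and 5.29% on chromosome X.

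The 3 clusters with the most regions held no protein-coding gene. The largest, chr6:114494400-114637177, held 44 regions spaced 2.52 kb apart at the median, had no annotated gene in its span and lay 5.95 kb from Atg7, an autophagy gene. The cluster chr8:123541909-123644194 held 35 regions spaced 1.86 kb apart over 46 annotated genes of 5S ribosomal RNA, near Gas8. The cluster chr9:3000076-3038226 held 19 regions at the beginning of the assembled chromosome, 297 kb from the nearest protein-coding gene, Alkbh8. These 98 regions, 3.09% of the members, are called arrays here. No list of problem regions was applied here, and whether reads can be placed uniquely in the arrays on chromosomes 6 and 9 was not tested, so their read numbers may hold reads of repeated sequence. Genes of 5S ribosomal RNA are near-identical copies, so reads of one copy can be assigned to another, and which copies were open is uncertain.

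The arrays had a lower median fold enrichment and a higher local background than the other members in every library. Their median fold enrichment was 4.02 and 3.89 in siControl, against 3.73 and 3.87 in siChst7, while the other 3073 members had 7.45, 7.46, 7.25 and 7.26. Fold enrichment is the authors' value for each peak, the reads at the summit over the local background within that library. It was used here to describe and rank peaks within a list. The local background in the arrays was 23.8 and 22.0 reads in siControl and 21.8 and 15.6 in siChst7, against 9.07, 8.55, 9.80 and 7.04 in the other members. The highest region of the cluster on chromosome 9 had 2038 and 1886 reads at its summit in siControl and 2129 and 1841 in siChst7.

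**Figure D1:**
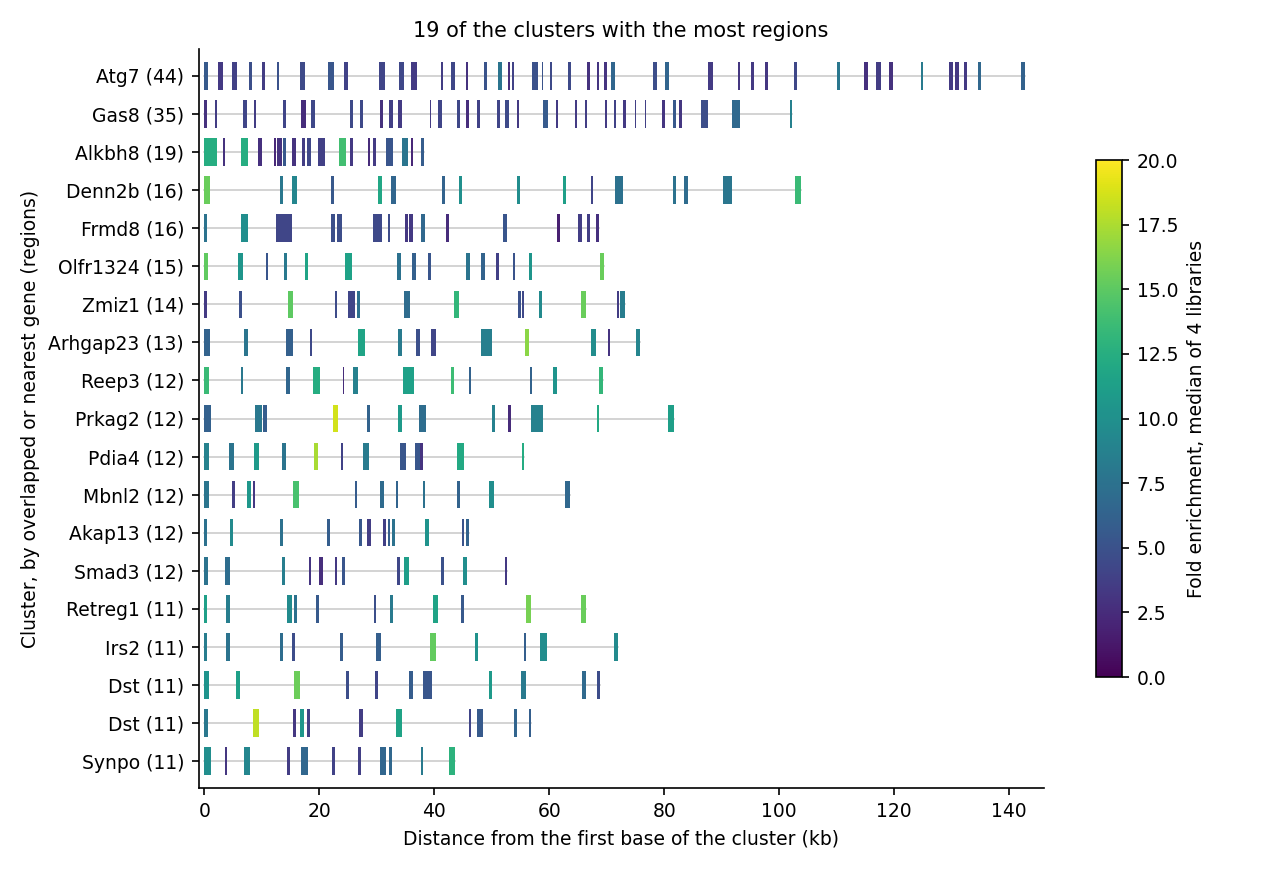
Each line is one of 19 clusters among those with the most regions, named by the protein-coding gene it overlaps or lies nearest to, with its number of regions. The x axis is the distance from the first base of the cluster in kb, each block is a region drawn to scale, and its colour is the fold enrichment (median of 4 libraries). The 3 arrays at the top are dense and mostly low in fold enrichment, and in the other clusters high and low regions alternate.

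The cluster at Neat1 and Malat1 and the one at Firre lay on long non-coding RNA genes. The cluster chr19:5780105-5848707 held 16 regions over Neat1 and Malat1, nuclear RNAs that build paraspeckles and associate with splicing speckles, and is named for its nearest protein-coding gene, Frmd8, in the plot of leading clusters. Its median fold enrichment was low, at 4.47 and 4.36 in siControl and 4.11 and 4.24 in siChst7, while the median number of reads at its summits was 210.5 (median over the 4 libraries for each region). The cluster chrX:50566298-50635808, with 15 regions, lay over Firre, an RNA known for organising chromosome contacts, with the olfactory receptor gene Olfr1324 as nearest protein-coding gene 140 kb away. The region at the printed Firre start was its highest, at 15 and 17.1 in siControl and 15.8 and 14.2 in siChst7. The values of the 2 groups overlapped there.

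The other leading clusters lay at protein-coding genes. Denn2b, which encodes an exchange factor for Rab GTPases, held 16 regions (chr7:109546288-109650135), Zmiz1, a transcriptional coregulator, held 14, and Arhgap23, a GTPase activating protein, held 13. Clusters of 12 regions included those at Reep3, Prkag2, Pdia4, Mbnl2, Akap13 and Smad3. Prkag2 encodes a regulatory subunit of the AMP-activated kinase, Mbnl2 a splicing regulator, Akap13 an anchor of protein kinase A, and Smad3 the transcription factor that carries the TGF-beta signal. Of these, those named for Reep3 and Akap13 were intergenic, 54.4 and 42.9 kb from the gene. The cluster at Pdia4 also spanned the genes of the small RNAs Rny1 and Rny3. Clusters of 11 regions lay at Retreg1, Irs2 and Synpo, 2 lay in Dst, which encodes the linker protein dystonin, and another spanned Thra, Nr1d1 and Msl1.

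Inside these clusters single regions differed widely. In the cluster at Prkag2 the highest region, which holds the printed start, had a fold enrichment of 18.6 and 18.7 in siControl and 18.8 and 18.4 in siChst7, and the lowest region of the cluster was at 2.42 (median of 4 libraries). Over all 431 clusters the highest region of a cluster exceeded the lowest 3.27 times at the median, with a range from 1.35 to 8.57. A region in the top 10% by fold enrichment of all shared regions was held by 82 clusters (19%), and one in the bottom 10% by 321 (74.5%). Such counts depend on the number of regions in a cluster and were not made for other groups. By region, 3.66% and 3.34% of the members were in the top 10% in siControl and 3.28% and 3.63% in siChst7. Of the other shared distal regions 8.36%, 8.23%, 8.34% and 7.89% were, in the same order.

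Compared with the other shared distal regions of the same library, members had lower fold enrichments over more reads. Their median fold enrichment was 7.33 and 7.32 in siControl, against 7.10 and 7.16 in siChst7, and that of the other 38095 was 9.28, 9.40, 9.09 and 8.82. The ratio of the medians was 0.790 ± 0.0149 (SD, n = 4 libraries), below 1 in 4 of 4 libraries, with an exact two-sided sign-flip p of 0.13, the smallest that 4 libraries allow. The reads at the summit went the other way. Members had medians of 75 and 72 reads in siControl and 78 and 58 in siChst7, and the other regions had 47, 46, 49 and 36, a ratio of 1.59 ± 0.0191 (SD, n = 4 libraries; exact p = 0.13).

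The local background differed most. It was 9.28 and 8.80 reads in siControl and 10.1 and 7.30 in siChst7 for members, against 3.99, 3.74, 4.29 and 3.10 for the other shared distal regions, a ratio of 2.35 ± 0.0120 (SD, n = 4 libraries; exact p = 0.13). The fold enrichment divides the first of these measures by the second, and how far the spacing of the peaks enters the background was not tested. Without the 3 arrays the ratios were 0.804 for fold enrichment, 1.57 for reads and 2.28 for background. Members and other regions were of similar width, with medians of 659 and 638 bp. In these bulk cells, a region open in fewer cells and one less open in each cell cannot be told apart.

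The change followed the size of the group in every library. In siControl replicate 1 the median fold enrichment fell from 10.2 for regions that stood alone to 8.92 in groups of 2, 8.33 in groups of 3 to 5, 7.53 in clusters of 6 or 7 and 6.97 in clusters of 8 or more. The reads at the summit rose over the same groups from 41 to 49, 58, 70 and 82. In siChst7 replicate 2, the shallowest library, fold enrichment went from 9.49 to 6.83 and reads from 31 to 63. No step of either series ran the other way in any of the 4 libraries, and clusters of 8 or more without the arrays had a median fold enrichment of 7.31 and 80 reads in siControl replicate 1.

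**Figure D2:**
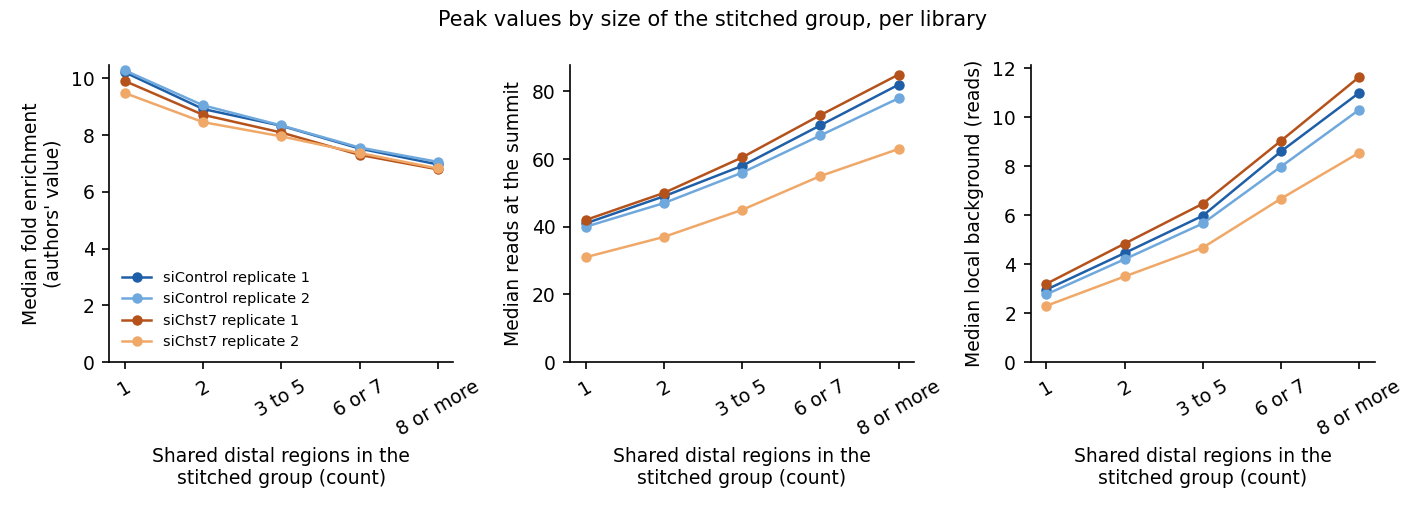
The x axis is the number of shared distal regions in the joined group, and the y axes are the median fold enrichment (the authors' value), the median reads at the summit and the median local background in reads, with 1 line for each of the 4 libraries. In every library fold enrichment falls and both read measures rise with the size of the group, and siChst7 replicate 2 has the fewest reads throughout.

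Peak calls in cluster regions were then checked on a library that had not been used to choose the regions. Whether these regions form a cluster in that library was not tested. Clusters were rebuilt by the same rule from 3 libraries, and their regions were looked up in the fourth. Of their regions, the siControl libraries held a peak in 97.7% and 97.7%, and the siChst7 libraries in 98.0% and 93.3%. The other distal regions shared by the 3 libraries were called in 96.5%, 96.9%, 97.0% and 90.6%. The difference was 1.46 ± 0.836 percentage points (SD, n = 4 libraries), higher for the clusters in 4 of 4 libraries, with an exact two-sided sign-flip p of 0.13, the smallest possible. Both shares were lowest in siChst7 replicate 2, the shallowest library. The 4 differences were built from overlapping sets of libraries and are not independent.

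The genes at the clusters were long, and the rule favours long genes. Links were made by body overlap and members lie over 2 kb from gene ends, so the lengths are descriptions. By body overlap, 308 clusters covered part of at least 1 protein-coding gene, 203 of them lying wholly within 1 gene, and 123 were intergenic at a median of 22.0 kb from the nearest gene. Together they were linked to 438 protein-coding genes, 325 by overlap and the rest as the nearest gene of an intergenic cluster. This is 2.02% of the 21631 genes of the table. The linked genes had a median length of 65.1 kb, against 17.3 kb for all. The share linked rose with length, from 0.592% in the shortest 25% of genes to 0.832%, 1.5% and 5.18% in the next classes of equal size, and counts over gene lists are given beside these shares and without a test.

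Some genes carried several clusters. Cacna1a, a voltage-gated calcium channel gene, and Tbc1d1, a Rab GTPase activating protein gene, each had 3 clusters with 18 regions. Dst had 2 clusters with 22 regions, and Akap13, Fmn1 and Myh9 had 2 with 18. Fmn1 encodes an actin nucleator and Myh9 the heavy chain of non-muscle myosin. Cebpb, a gene of 1.52 kb that encodes a transcription factor of adipocyte differentiation and acute-phase responses, was linked to 2 clusters with 15 regions, 1 of them 69.5 kb away. In all, 21 genes were linked to at least 2 clusters.

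The gene lists were chosen with earlier results of these data known, so their shares and their order are descriptions. Among them, genes of the actin cytoskeleton and of cell adhesion to the matrix were linked most often. Of 29 such genes 10 (34.5%) had a cluster, namely Arhgef2, Itga5, Itgb1, Itgb5, Lpp, Myo1e, Pxn, Tns1, Tns3 and Vcl. Among the longest 25% of genes the count was 9 of 21 (42.9%), against 5.18% for all genes of that class, and with clusters of at least 8 regions the count over the list was 3 of 29 (10.3%), against 0.656% of all genes. At that size 2 of 19 cartilage and bone genes (10.5%) and 1 of 9 adipocyte genes (11.1%) were linked, so the list no longer came first. Itga5 and Itgb1 encode the 2 chains of the fibronectin receptor, and Itgb5 encodes a partner of the alpha V chain. Vinculin (Vcl), paxillin (Pxn), the tensins (Tns1, Tns3) and Lpp sit on the inner side of adhesion sites, Myo1e is a membrane-bound myosin, and Arhgef2 encodes a microtubule-bound exchange factor for small GTPases.

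The values of these clusters varied. The cluster of 9 regions 4.80 kb from Vcl (chr14:20865557-20924579) had a median fold enrichment of 12.1 and 13.4 in siControl and 11.5 and 12.3 in siChst7. The 9 regions at Itga5 had medians of 7.76, 8.30, 7.54 and 7.78 in the same order, and their highest region, at the end of the cluster, had 16.6, 17.3, 16.8 and 18.1. The 7 regions at Lpp were lower, at 5.07, 4.92, 4.66 and 5.09. In all 3 clusters these medians overlapped between the siRNA groups.

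The YAP and TEAD list had the next highest share. Of 17 genes of the YAP and TEAD pathway, which carries signals from cell tension to transcription, 4 (23.5%) had clusters. Tead1 encodes a DNA-binding factor of the pathway, Amotl1 and Amotl2 encode angiomotins that bind YAP, and Vgll4, a TEAD cofactor that competes with YAP, had 2 clusters of 6 regions. Of 18 smooth muscle and myofibroblast genes 3 (16.7%) had one, the actin-binding Actn1, Cald1 and Tpm1. Among all genes the share was 2.02%. In the longest class of genes 3 of 9 of the YAP and TEAD list were linked (33.3%). The smooth muscle list had 2 of 6 there (33.3%), against 5.18% of all genes of that class. The 7 regions at Tpm1 (tropomyosin) had low median fold enrichments of 4.03 and 4.64 in siControl and 3.58 and 4.17 in siChst7.

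Genes of glycosaminoglycan synthesis, the pathway in which Chst7 acts, had clusters in 5 of 42 (11.9%). They were Chst3, a chondroitin 6-O-sulfotransferase as Chst7 is, and 4 genes of heparan sulfate synthesis, namely Ext1 and Ext2, the chain polymerases, and the sulfotransferase genes Ndst1 and Hs6st1, the last 126 kb from its cluster. In TGF-beta and BMP signalling 2 of 24 (8.33%) had clusters, Smad3 and the inhibitory Smad7. In cartilage and bone 2 of 19 did (10.5%), Runx1 and Runx2, transcription factors that are also expressed in mesenchymal cells, with 8 regions each. Of 9 adipocyte genes 2 did (22.2%), Cebpb and Lep. Among all genes the share was 2.02%, and 5.18% in the longest class. In that class 3 of 23 genes of the glycosaminoglycan list were linked (13.0%). The TGF-beta and BMP list had 1 of 14 there (7.14%), near the share of all genes of that class. Cartilage and bone had 2 of 7 (28.6%) and adipocytes 0 of 1.

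Lists of genes that define fibroblasts or heart cells had 0 or 1 linked gene each, near the 2.02% of all genes. Of 36 mesenchymal transcription factors 1 had a cluster (Nfix, 2.78%), and of 40 genes of fibroblast matrix and surface 1 did (Col5a1, 2.50%). All 9 fibroblast markers named above lay without a cluster within 50 kb, and the largest joined group near any of them had 5 regions. The markers of the other cell types named above also had no cluster within 50 kb. The largest group near those of endothelium and of epithelium had 5 regions too. Of 21 cardiac transcription factors 1 (4.76%) was linked, Mef2c, whose cluster of 7 regions lay 47.8 kb away over Mir9-2. Of 21 genes of cardiac ion handling 1 was linked (Jph2), and of 25 sarcomere genes 0. Counted within 50 kb, whichever gene a cluster is linked to, 2 sarcomere genes had a cluster, Myl2 and Des. By that count 2 mesenchymal transcription factors (Nfix and Prrx2) and 1 gene of fibroblast matrix and surface did. Each of the other 2 cardiac lists again had 1. The endogenous gene of Gata4 had 10 shared distal regions within 50 kb with at most 3 in a joined group, and Tbx5 had 0.

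Skeletal muscle (0 of 15), epithelium and epicardium (0 of 15), immune cells (0 of 13) and neurons and glia (0 of 15) had no linked gene. With 2.02% of all genes linked, fewer than 1 gene would be linked in lists of this length at the share of all genes, so these counts of 0 hold little information. Single genes of other lists were Bach2 of 14 AP-1 factors, Tcf7l2 of 24 Wnt genes and Flt1 of 15 endothelial genes. Of 17 cell cycle genes Myc was linked, at 116 kb, through a cluster of 7 regions over Pvt1, the long non-coding gene beside Myc that is known to hold Myc enhancers.

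**Figure D3:**
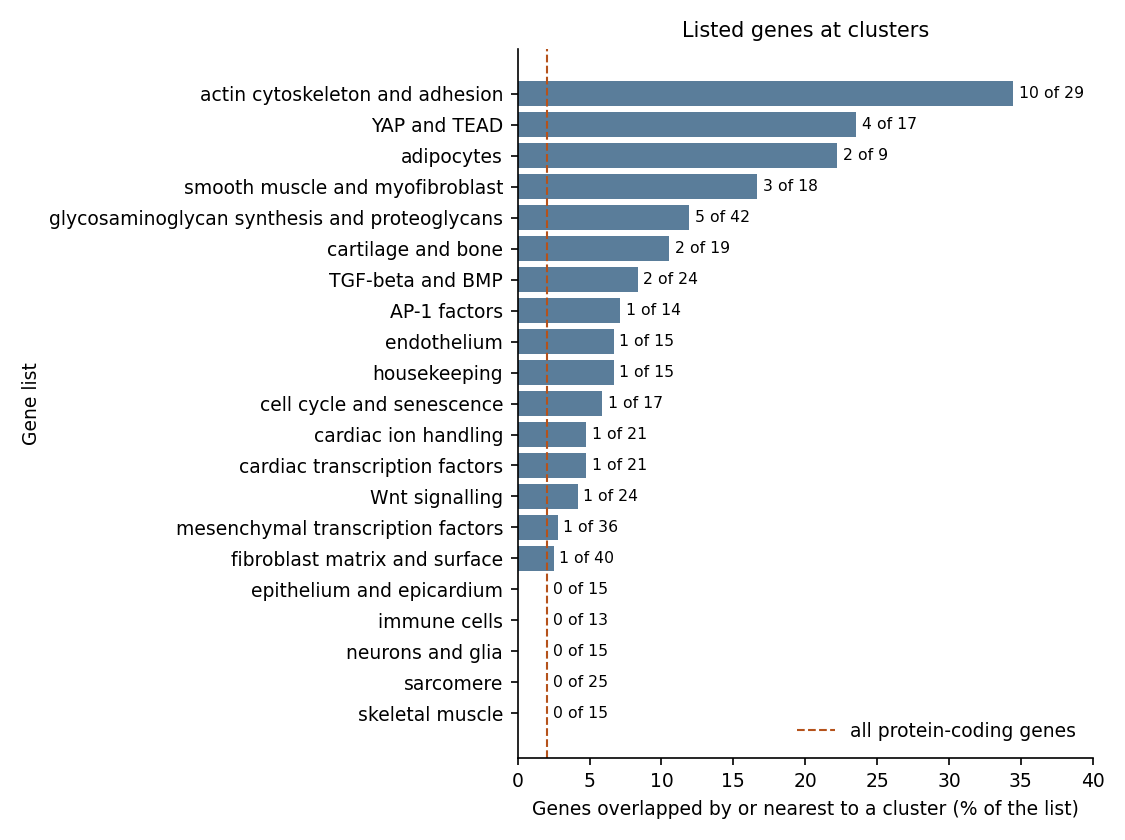
Bars give the share of each gene list, in %, that a cluster overlaps or lies nearest to, with the count beside each bar, and the dashed line is the 2.02% of all protein-coding genes. The list of actin cytoskeleton and adhesion genes has the longest bar (10 of 29), and 5 lists have 0 genes.

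Long non-coding RNA and miRNA genes were overlapped at shares near that of protein-coding genes. Long non-coding RNA genes lay in the span of 182 clusters, which overlapped 1.99% of all such genes, against 1.5% of protein-coding genes and 2.20% of miRNA genes. Small nucleolar RNA genes lay in 7 clusters and tRNA genes in 5. Those 5 clusters held 29 tRNA genes (7.11% of all), 10 at Btn1a1. The miRNA genes included Mir125b-1, in a cluster of 7 regions over Mir100hg that lies 294 kb from any protein-coding gene, and Mir34a, a target of p53, in a cluster of 6 regions 8.74 kb from Gpr157.

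The siRNA comparison asks whether the members changed with knockdown of Chst7. Each region was ranked by fold enrichment among the 55907 shared regions of its library, from 0 (lowest) to 100 (highest). The mean rank of the members was 35.9 and 35.9 in siControl, against 35.4 and 36.7 in siChst7. The siChst7 libraries lay on either side of siControl, and the difference of 0.137 percentile points had an exact two-sided permutation p of 1, where 0.33 is the smallest that 2 against 2 libraries allow. Without siChst7 replicate 2 the difference was -0.431. Both siChst7 ranks lay above both siControl ranks in 641 members (20.2%), where 19.5% of all shared regions did so, and both lay below in 599 (18.9%), where 18.4% did. These shares are close to the background.

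Ranked by the reads at the summit, the members' means were 56.5 and 56.2 in siControl and 57.1 and 57.0 in siChst7. The groups did not overlap, but the difference of 0.728 points had an exact two-sided permutation p of 0.33, the smallest possible. For the other shared distal regions it was 0.293. Both siChst7 ranks lay above both siControl ranks in 27.2% of the members, where 21.0% of all shared regions and 23.5% of the other shared distal regions did so. Both lay below in 18.4%, where 21.7% of all shared regions and 20.5% of the other shared distal regions did. The difference of the means had the same sign by both measures. By fold enrichment, though, the siChst7 libraries lay on either side of siControl, and the sign reversed without siChst7 replicate 2. The part of depth, lowest in siChst7 replicate 2, was not tested.

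By cluster, the mean rank by fold enrichment of 87 clusters (20.2%) lay above siControl in both siChst7 libraries, that of 88 (20.4%) lay below, and 256 overlapped. Of all 8698 joined groups of at least 2 regions, 19.8% lay above and 18.8% below. The clusters named next were picked as the extremes of the 431, so their values are descriptions. The median size of the difference was 1.74 percentile points.

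The lowest cluster was Sh3kbp1, which encodes an adaptor of receptor endocytosis. Its 6 regions had a mean rank of 51.0 and 61.8 in siControl and 48.8 and 45.0 in siChst7, a difference of -9.48 points. Nectin1, a cell adhesion molecule, had 35.3 and 38.5 against 26.4 and 29.7. Its difference of -8.83 points came with 3 of 6 regions below siControl in both siChst7 libraries. Nid1, the basement membrane protein nidogen, followed with -6.56 points, then Ext2 with -6.34 and Lmo7 with -6.33, whose groups overlapped.

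The highest cluster spanned Ms4a6d and Ms4a2, membrane protein genes of immune cells, with mean ranks of 49.6 and 50.4 in siControl and 58.2 and 59.7 in siChst7. Its difference was 8.92 points, with 4 of 6 regions above siControl in both siChst7 libraries. Synpr, which encodes a synaptic vesicle protein, had 25.1 and 27.8 against 34.3 and 35.0, a difference of 8.19 points. Grap (8.13 points), Plet1 (7.27) and Nfix (6.83) came next. Of these, Nfix is the mesenchymal transcription factor already named.

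**Figure D4:**
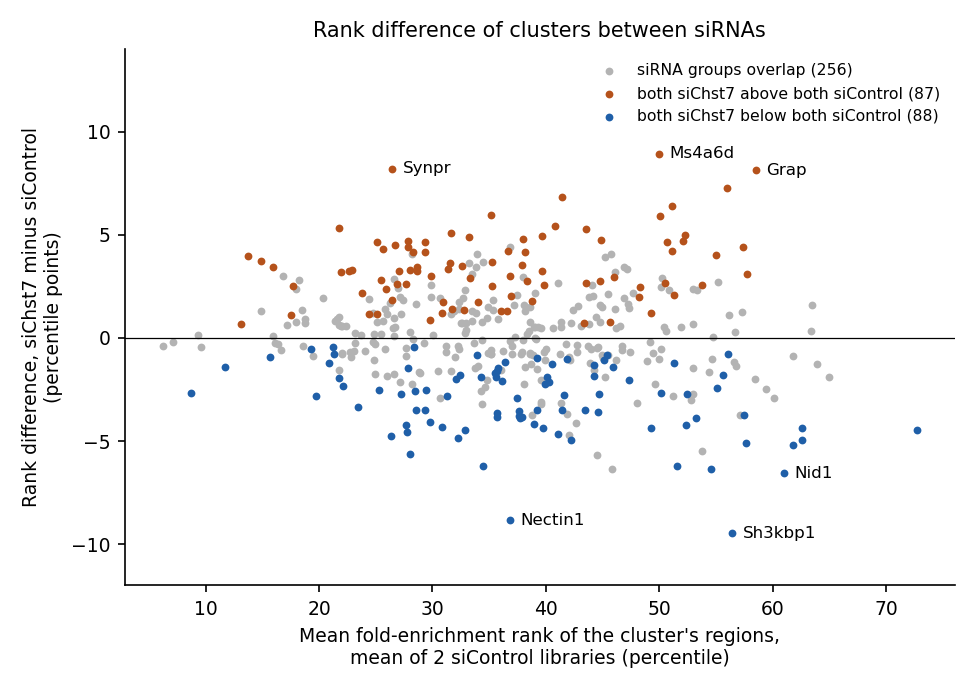
Each point is one of the 431 clusters, with the mean rank of its regions in siControl on the x axis (percentile by fold enrichment among shared regions) and the difference of siChst7 minus siControl on the y axis in percentile points. Orange and blue points are the 87 and 88 clusters whose siRNA groups do not overlap, grey points the 256 that do, and the cloud is about as wide above 0 as below it.

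The clusters at glycosaminoglycan genes did not move one way. At Chst3 the mean ranks were 38.4 and 41.2 in siControl and 41.4 and 43.3 in siChst7, above but with little room between the groups. Ext1 was higher in siChst7, with 51.2 and 51.0 against 60.0 and 55.0, and its partner Ext2 was lower, with 55.5 and 53.6 against 50.5 and 45.9. At Hs6st1 the groups overlapped. At Ndst1 siChst7 lay above by 1.32 points.

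The miRNA clusters also went both ways. The 7 regions at Mir125b-1 and Mir100hg had mean ranks of 27.8 and 28.2 in siControl and 23.2 and 21.5 in siChst7, a difference of -5.61 points. At Mir34a the order was reversed, with 25.1 and 25.2 against 30.5 and 29.1, a difference of 4.65 points. Of the 2 clusters at Vgll4, both lay above in siChst7, by 4.42 and 3.23 points. In the actin and adhesion list, Vcl lay below by 2.44 points, Arhgef2 below by 2.56 and Pxn above by 2.62.

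Some single members differed more than the clusters did. The highest difference was at chr17:7675264-7675809, in the cluster at Fndc1, which encodes a protein with fibronectin domains, and its fold enrichment was 5.45 and 6.04 in siControl, against 9.98 and 8.42 in siChst7 over 15 to 30 reads at the summit. The lowest was at chr6:108436730-108437294, in the cluster at Itpr1, the gene of a calcium channel of the endoplasmic reticulum, with 11.1 and 10.9 in siControl and 7.42 and 6.43 in siChst7 over 18 to 38 reads. The next lowest lay at Arg1, an arginase gene, and at Plekha1 and Osmr, the receptor of oncostatin M. At Osmr (chr15:6883972-6884376) the fold enrichment was 13.4 and 12.8 against 9.38 and 8.15. These members were picked as extremes, so their differences are given without a test.

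Clusters built from 1 siRNA alone showed how far they depend on the libraries. The 2 siControl libraries gave 665 clusters with 5021 regions, and the 2 siChst7 libraries gave 547 with 4061. Of the siControl cluster regions 94.1% were called in siChst7 replicate 1 and 89.6% in siChst7 replicate 2, against 92.7% and 86.6% of the other distal regions of siControl. Of the siChst7 cluster regions 95.7% and 95.8% were called in the siControl libraries, against 94.4% and 94.7% of the others.

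Of the 665 siControl clusters 444 (66.8%) overlapped a siChst7 cluster, and of the 547 siChst7 clusters 447 (81.7%) overlapped a siControl cluster. This share was not computed for joined groups of other sizes. Of the regions in the siControl clusters 87.6% were called in both siChst7 libraries, and of those in the siChst7 clusters 93.4% in both siControl libraries. A cluster without a counterpart can have all its regions called, as with the 7 regions of the siControl cluster at Hs6st1. The siControl clusters without a counterpart included 12 regions at Dusp1, a phosphatase of MAP kinases, 12 at Fkbp5, 12 at Scfd2 and 10 at Rbpj, the DNA-binding factor of Notch signalling. Of the 12 regions at Dusp1, 9 were also called in both siChst7 libraries and 0 were absent from both. At Fkbp5, Scfd2 and Rbpj, 10, 8 and 6 regions were called in both, and 1, 0 and 2 were absent from both. Those of siChst7 without a counterpart included 10 regions at Cald1 and 10 at Ubash3b. In each of these, 8 regions were also called in both siControl libraries, and 0 at Cald1 and 1 at Ubash3b were absent from both. Cald1 also had a separate cluster of 9 regions shared by all 4 libraries. The shallower siChst7 replicate 2 has fewer peaks. For the look-up of single regions, the difference between the 2 directions, -3.96 points, became -0.387 with lists of equal length. The overlap of clusters was not recomputed with such lists, so the part of list length in it was not tested.

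Within the spans of the 431 clusters lay 3643 distal regions in all, of which 472 (13.0%) were called in only 1 to 3 libraries. The span of a cluster is fixed by regions called in all 4, so this share is lowered by the rule. It was 42.2% over all distal regions. Of the regions in the spans, 46 were called in both siControl libraries and in neither siChst7 library (1.26%) and 16 (0.439%) the other way round. Over all 71449 distal regions these shares were 3.14% and 1.42%, so the siControl side was the larger there too.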

How the data were processed

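ATAC-seq peak lists of 4 libraries (2 siControl, 2 siChst7) were used, 1 list per library. Tools named in the submitters' processing notes are MACS3, HOMER, bedtools, Bowtie and SAMtools, with mm10 as build and no version numbers. For their roles, duplicate removal, the Tn5 shift and exclusion lists, nothing is stated in the sources at hand. The deposited score is 10 times the −log10 q, the deposited fold is a ratio of summit to local background, and the deposited −log10 p and q are those of the summit, with q listed from a −log10 of 2. The other deposited column used is the summit offset. Summit reads and local background were solved from the authors' fold and −log10 p with a Poisson model; all peaks were matched within 0.02, and the solver and joining were tested on simulated data. Regions, gene links (RefSeq, GRCm38.p6, gene ends without strand) and ranks were computed with Python 3.11.15, pandas 2.3.3, numpy 2.4.6 and scipy 1.17.1. Comparisons used exact permutation tests over libraries, whose p-values measure only the spread between these samples. The members and gene lists were chosen with earlier results of these data known. Named clusters were the 20 with the most regions (1 of them and 1 listed gene are not reported here), those linked to a listed gene and the 5 highest and 5 lowest siRNA differences. Start windows, miRNA genes and genes with several clusters were described in addition, and the windows, miRNAs and unmatched clusters named were chosen after their values were seen. Alternatives covered joining distance, cluster size, peak threshold, overlap, gene ends, measure and each library left out.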

Additional observations from a re-analysis of the deposited data

How the results depend on the processing

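The number of clusters (431) and of members (3171) depended on the rule. Joining at 6 kb gave 42 clusters with 330 members and joining at 25 kb gave 1388 with 12366. A minimum of 5 regions gave 816 with 5096, and one of 8 gave 133 with 1287 and 142 linked genes in place of 438. Requiring peaks over at least 50% of a region gave 276 with 1971, and distance from the ends of all genes, non-coding included, gave 2104 members. The lower fold enrichment of members (log2 ratio -0.34) kept its sign under 15 alternatives. It reversed with −log10 q (0.24) and with summit reads (0.67, chosen after seeing the data, as was leaving out the 3 arrays), and the cause was not tested. The siRNA rank difference of members (0.137 points) became -0.431 without siChst7 replicate 2, with a range of -0.431 to 0.756 over the 4 libraries left out. The difference in look-up between siRNAs (-3.96 points) became -0.387 with lists of equal length. The held-out difference kept its sign under all 10 alternatives run.

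With the replicate number as a replicate block, the siRNA rank difference was 0.137 ± 0.891 points (SD of 2 paired differences), with an exact sign-flip p of 1, where 0.5 is the smallest possible. The labels do not say that a number marks a shared culture or day. Over all shared regions the differences between replicates 1 and 2 of the 2 siRNAs had a correlation of 0.0119. No shared shift in rank was seen, but this cannot show whether same-numbered libraries shared a culture or day. With 2 libraries per siRNA no test here could pass a threshold of 0.05.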
